A study of Homo sapiens with 8 samples.

Results

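The responses of BOKU and SKG-I, both established cervical cancer cell lines, to knockdown of IGF2R were set against each other. Cells were transfected by lipofection with a control siRNA (siCtrl) or with an siRNA against IGF2R (siIGF2R), and total RNA was taken after 72 h. Both lines were grown in the same medium with serum, and neither carried a further treatment. Each line and siRNA gave 1 RNA sample. Duplicate GeneChip U133 Plus 2.0 arrays were run on every one of the 4 samples, and all 8 arrays of the series entered the comparison. The siRNA sequence against IGF2R used for the arrays is not given in the sources used here.

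The response of a line was the mean log2 signal with siIGF2R minus that with siCtrl, and the difference was the response of SKG-I minus the response of BOKU. A difference of 1 is thus a 2-fold gap between the fold changes of the lines. A probe set, the group of probes that reads 1 transcript, was analyzed when its signal reached 500 on at least 1 array of each line. This left 12172 of the 54613 probe sets that are no array controls (22.3%), and they covered 6995 genes named by a single symbol, out of 8959 genes that reached 500 on any array. A gene was read from its analyzed probe set with the highest mean log2 signal. Because each line and siRNA is a single culture, the design leaves no spread between cultures against which the difference could be tested. No p is therefore given, and a difference between the lines cannot be told apart from one between cultures. The error beside a value is the range of the difference over the 16 ways to take 1 of the duplicate arrays from each RNA sample, which covers array error alone. Effects of lowered IGF2R and of the siRNA itself cannot be told apart in these arrays. Between duplicates, the difference in log2 signal had an SD of 0.157 to 0.211 over the analyzed probe sets.

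IGF2R, also called the cation-independent mannose 6-phosphate receptor, carries newly made lysosomal hydrolases from the Golgi apparatus to endosomes and takes up IGF2 at the cell surface. Several gene programs recur in the results and work as follows. Type I interferon turns on a set of antiviral genes through a shared promoter element, the interferon-stimulated response element. Growth factor signaling through ERK induces its own inhibitors, the DUSP phosphatases and the Sprouty family. Genes for mitosis are switched on together late in the cell cycle, through promoters that carry a CCAAT box and a cell cycle homology element.

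IGF2R itself was lowered in both lines. Its signals were 7288 and 6710.5 with siCtrl and 641 and 645 with siIGF2R in BOKU, and 4119.6 and 3838 with siCtrl and 257 and 295 with siIGF2R in SKG-I. The siIGF2R arrays lay below all siCtrl arrays of the same line. The response was -3.44 in BOKU and -3.85 in SKG-I, a 10.9-fold and a 14.5-fold fall, and the difference of -0.41 (-0.63 to -0.20) stayed under 1. A second IGF2R probe set gave responses of -3.26 and -3.32.

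The lines were checked against cell type markers. Of 10 epithelial markers 7 were read by a probe set of their own, and KRT6A, KRT17 and TP63 were not. KRT8, KRT18 and KRT19, keratins of simple epithelium, gave signals of 1939 or more on every array. CDKN2A, the p16 inhibitor that is often high in cervical carcinoma, gave 6727 or more. The basal keratins KRT5 and KRT14 gave at most 45.9. EPCAM, an epithelial adhesion molecule, lay at 1247 to 1536 in SKG-I but at 50.8 or less in BOKU, and CDH1, which encodes E-cadherin, reached 3.15 at most in BOKU and 143 to 652 in SKG-I. The 4 leukocyte markers read by a probe set of their own gave at most 77.9. Of 5 fibroblast markers, COL1A1 reached 500 in both lines and COL3A1 in SKG-I, and the summed signal of the list was 1372 to 1664 in BOKU and 5868 to 7826 in SKG-I. COL1A2, LUM and DCN were at 149 or less everywhere. The 3 endothelial markers summed to 490 to 570 in BOKU and 110 to 273 in SKG-I, and none reached 500. The part of these levels in the results was not tested.

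In all, 846 of 12172 probe sets differed by 1 or more. The difference was higher in SKG-I for 424 probe sets (3.48% of those analyzed) and lower for 422 (3.47%). Per gene, 497 of 6995 differed, 229 with the higher value in SKG-I (3.27%) and 268 with the lower (3.83%), and 76 differed by 2 or more. All 497 kept their sign over the 16 array choices, and 274 stayed at 1 or beyond in each choice. The difference had a median of -0.06 over all genes, with median responses of 0.01 in BOKU and -0.04 in SKG-I. A response of 1 or more was seen in 6.12% of genes in BOKU and 6.38% in SKG-I, and one of -1 or less in 4.36% and 5.42%. A gene could reach the signal of 500 through 1 siRNA alone, and for such a gene the filter favors a response in that line. Of the 497 genes 215 fell short of 500 on both arrays of at least 1 RNA sample. Among the 5933 genes that reached 500 in all 4 RNA samples 143 were higher in SKG-I and 139 lower.

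The 497 genes fell into classes by what each line did. In 73 genes (1.04% of all) the responses pointed in opposite directions with at least 0.5 in each line, 34 of them with SKG-I higher and 39 with SKG-I lower. In 140 genes (2.0%) the response was 1 or more in SKG-I and under 0.5 in BOKU, with 83 rises and 57 falls. In 92 genes (1.32%) it was 1 or more in BOKU and under 0.5 in SKG-I, with 73 rises and 19 falls. A further 85 genes had responses of 0.5 or more with the same sign in both lines but of a different size, and in the remaining 107 the response was under 1 in both lines. Just inside the threshold lay CLDN1, with responses of -0.27 and 0.73 and a difference of 1.004, and AGTPBP1 at -1.005. Just outside lay APOO at -0.9996 and ANXA3 at 0.995.

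**Figure D1:**
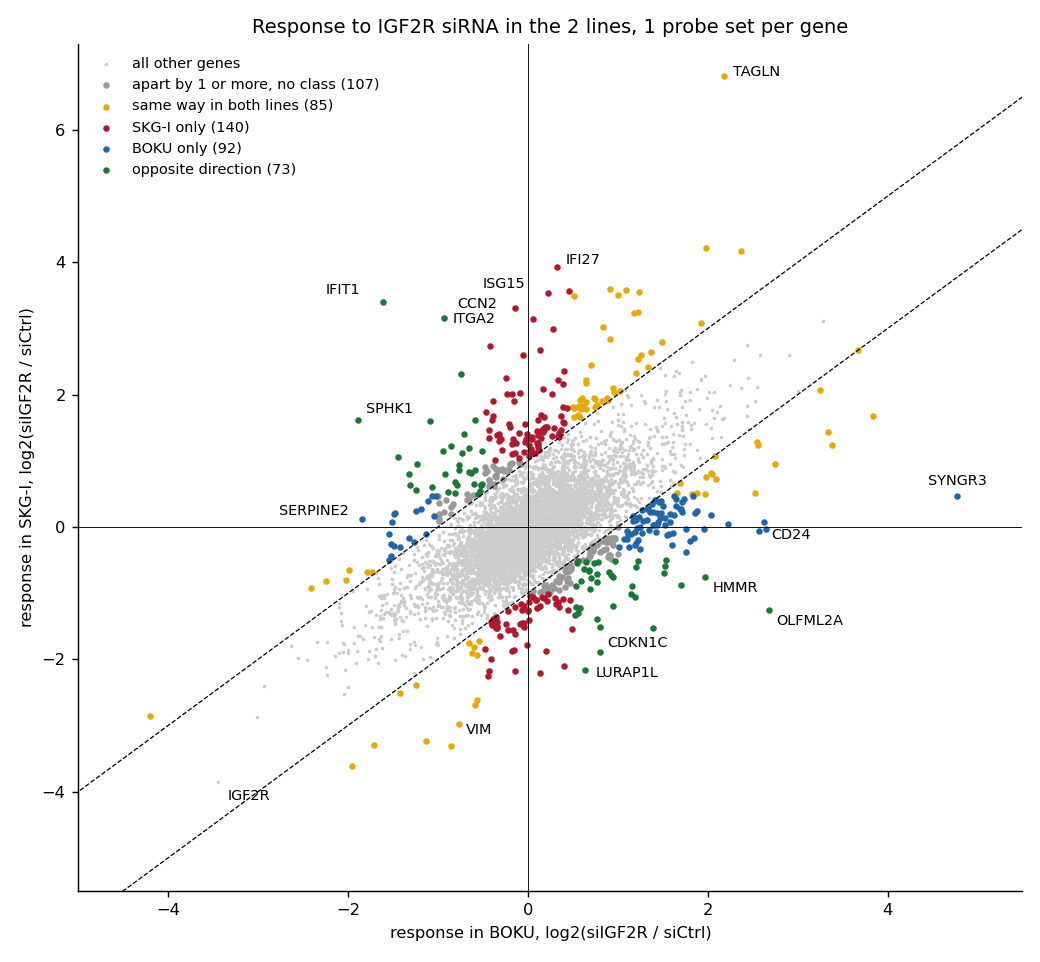
Response of each of 6995 genes to siIGF2R in BOKU (horizontal axis) and SKG-I (vertical axis), as log2(siIGF2R / siCtrl) with duplicate arrays averaged. Dashed lines mark a difference of 1 between the lines, and colors mark the classes, with 73 genes in opposite direction (green), 140 changed in SKG-I only (red), 92 changed in BOKU only (blue) and 85 changed the same way to a different degree (yellow). IGF2R lies between the dashed lines at the lower left.

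The 73 genes with opposite responses included the one with the largest difference of all 6995, IFIT1, an interferon-induced protein that binds foreign RNA. Its signals were 1049 and 973 with siCtrl and 361 and 303 with siIGF2R in BOKU, and 447 and 585 with siCtrl and 5365 and 5462 with siIGF2R in SKG-I. With siIGF2R it thus fell in BOKU and rose in SKG-I, and the line with the lower signal under siCtrl had the higher one under siIGF2R. The responses were -1.61 in BOKU and 3.40 in SKG-I, and the difference was 5.02 (4.63 to 5.40).

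ITGA2, the collagen-binding integrin alpha 2 subunit, gave 3451 and 2921 with siCtrl and 1652 and 1673 with siIGF2R in BOKU, and 551 and 557 with siCtrl and 5102 and 4806 with siIGF2R in SKG-I. The arrays of the 4 RNA samples did not overlap, and SKG-I moved from the lowest to the highest level. The responses were -0.93 and 3.16 and the difference was 4.09 (3.91 to 4.27). A second probe set gave -1.01 and 2.17. SPHK1, the kinase that makes sphingosine 1-phosphate, gave 4918 and 5158 with siCtrl and 1404 and 1322 with siIGF2R in BOKU, and 619.5 and 569.7 with siCtrl and 1764 and 1877 with siIGF2R in SKG-I. It fell in BOKU from the highest level of the 4 RNA samples and rose in SKG-I from the lowest, with a difference of 3.50 (3.32 to 3.68).

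THBD, the anticoagulant receptor thrombomodulin, had responses of -0.75 and 2.32 and a difference of 3.07 (2.76 to 3.38). NT5E, the ectoenzyme CD73 that makes adenosine, gave 15575 and 15112 with siCtrl and 5616 and 5697 with siIGF2R in BOKU, and 1717 and 1787 with siCtrl and 3488 and 3812 with siIGF2R in SKG-I. Its SKG-I arrays stayed below all BOKU arrays at either siRNA, although the gap narrowed. The difference was 2.50 (2.37 to 2.62), and further probe sets gave 1.81 and 1.06. In the last of these BOKU had a response of -0.11 in place of -1.44. PNP, which splits purine nucleosides, had responses of -0.71 and 1.41. PRAG1, a pseudokinase scaffold, had -1.09 and 1.59, and TM4SF1, a membrane protein that supports cell motility, had -0.95 and 1.15, with 2 further TM4SF1 probe sets at differences of 2.14 and 2.51.

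In the other direction, CDKN1C, the cyclin-dependent kinase inhibitor p57, had responses of 0.80 in BOKU and -1.89 in SKG-I. Its signals were 1032 and 1192 with siCtrl and 1928 and 1927 with siIGF2R in BOKU, and 2997 and 3351 with siCtrl and 799.5 and 912 with siIGF2R in SKG-I. The siCtrl arrays were higher in SKG-I and the siIGF2R arrays higher in BOKU. The difference was -2.69 (-2.97 to -2.41), and 3 further probe sets gave -3.11 to -2.42. KCTD12, an auxiliary subunit of GABA-B receptors, gave 306 and 327 with siCtrl and 878 and 779.8 with siIGF2R in BOKU, and 2633 and 2537 with siCtrl and 865 and 932 with siIGF2R in SKG-I. The lines were far apart with siCtrl and overlapped with siIGF2R, and the difference was -2.91 (-3.13 to -2.70).

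OLFML2A, an olfactomedin-domain protein of the extracellular matrix, had the largest difference in this direction. Its signals were 50.5 and 127 with siCtrl and 472 and 558 with siIGF2R in BOKU, and 2263 and 2162 with siCtrl and 853 and 999 with siIGF2R in SKG-I. The BOKU siCtrl arrays were low and far from each other, and the range was wide, -3.94 (-4.87 to -3.01). LURAP1L had responses of 0.64 and -2.16 with a narrow range, -2.80 (-2.90 to -2.70). The remaining named genes were KYNU, a tryptophan-degrading enzyme (1.51 and -0.70), DLX2, a homeobox transcription factor (1.71 and -0.87), NALCN, a sodium leak channel (1.16 and -0.89), and HMMR, which is taken up with the mitotic genes below.

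**Figure D2:**
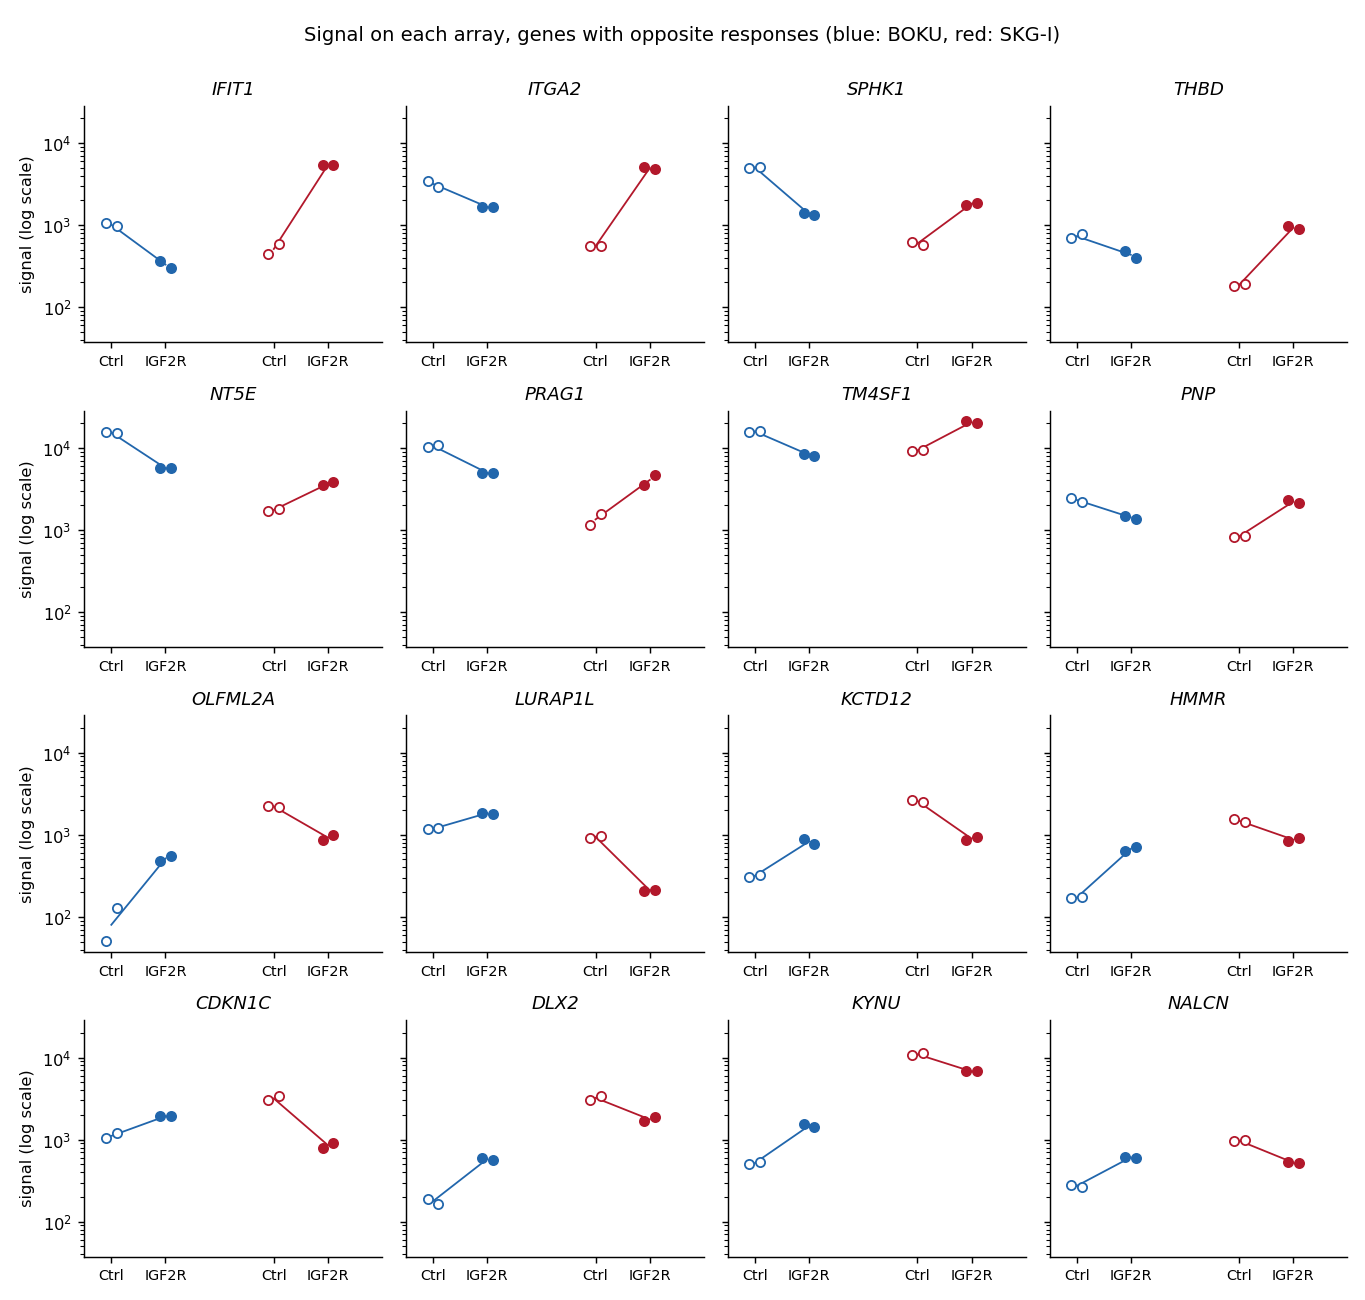
MAS5 signal on each array (log axis) of 16 genes with opposite responses, the 8 named with SKG-I higher (upper panels) and the 8 with SKG-I lower (lower panels). Open points are siCtrl arrays, filled points siIGF2R arrays, blue is BOKU and red is SKG-I, and lines join the geometric means. In every panel the blue and the red segment slope in opposite directions, for example from 1049 and 973 to 361 and 303 in BOKU and from 447 and 585 to 5365 and 5462 in SKG-I for IFIT1.

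Interferon-response genes were higher in the response of SKG-I. Of 59 listed genes 31 were measured in both lines, and 21 of them were higher in SKG-I by 1 or more (67.7%, against 3.27% of all genes) and 1 was lower. The list was known from earlier results on these arrays, so its count is a description. The median response was 0.17 in BOKU and 1.51 in SKG-I, and the median difference was 1.57. In SKG-I 20 of 31 rose by 1 or more (against 6.38% of all genes) and none fell that far. In BOKU 2 rose, near the 6.12% of all genes, and 1 fell. Of the 22 genes that reached 500 in all 4 RNA samples 12 were higher in SKG-I (54.5%, against 2.41% of all genes that did) and 1 was lower. By class, 13 changed in SKG-I only, 3 were opposite and 4 moved the same way to a different degree.

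ISG15, a ubiquitin-like modifier, gave 2299 and 2018 with siCtrl and 2569 and 2457 with siIGF2R in BOKU, and 722 and 752 with siCtrl and 8517 and 8496 with siIGF2R in SKG-I. The BOKU arrays lay between 2018 and 2569 whichever siRNA was used, and SKG-I moved from below that band to above it. The responses were 0.22 in BOKU and 3.53 in SKG-I, with a difference of 3.31 (3.15 to 3.46). RIGI, the cytosolic sensor of viral RNA, gave 608 and 557 with siCtrl and 598 and 615 with siIGF2R in BOKU, and 159 and 117 with siCtrl and 1239 and 1176 with siIGF2R in SKG-I. The BOKU arrays overlapped between the siRNAs, SKG-I moved from below them to above them, and the difference was 3.09 (2.74 to 3.43). A second RIGI probe set put BOKU at -0.78 and SKG-I at 2.18.

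IFI6, an interferon-induced membrane protein, gave 1316 and 1399.9 with siCtrl and 1981 and 1900.3 with siIGF2R in BOKU, and 1312 and 1562 with siCtrl and 16255 and 15770.1 with siIGF2R in SKG-I. The lines overlapped with siCtrl and were far apart with siIGF2R, with a difference of 2.97 (2.75 to 3.19). IFI44L, an interferon-induced gene, had responses of 0.45 and 3.57, and IFI44, its neighbor in the same family, had -0.05 and 2.59. IFI27, another interferon-induced gene, had 0.32 and 3.93, but its SKG-I siCtrl signals of 97.3 and 30.8 were low and the difference ran from 2.57 to 4.64. Its SKG-I signals stayed below the BOKU arrays, which were at 5391 to 7441, even after the rise.

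The genes of this paragraph were chosen after their values were seen. IFI35 was the 1 gene lower in SKG-I, with responses of 0.21 and -0.93. GBP1, a guanylate-binding GTPase, rose in both lines, by 1.98 and 4.21. EIF2AK2, which encodes the RNA-activated kinase PKR, rose by 1.0 and 1.61, and its difference of 0.61 was under 1. IFITM2 and IFITM3, which block viral entry, had responses of -0.06 and 0.12, and of -0.15 and 0.15. IRF9, a transcription factor of the interferon response, had 0.52 and 1.79.

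**Figure D3:**
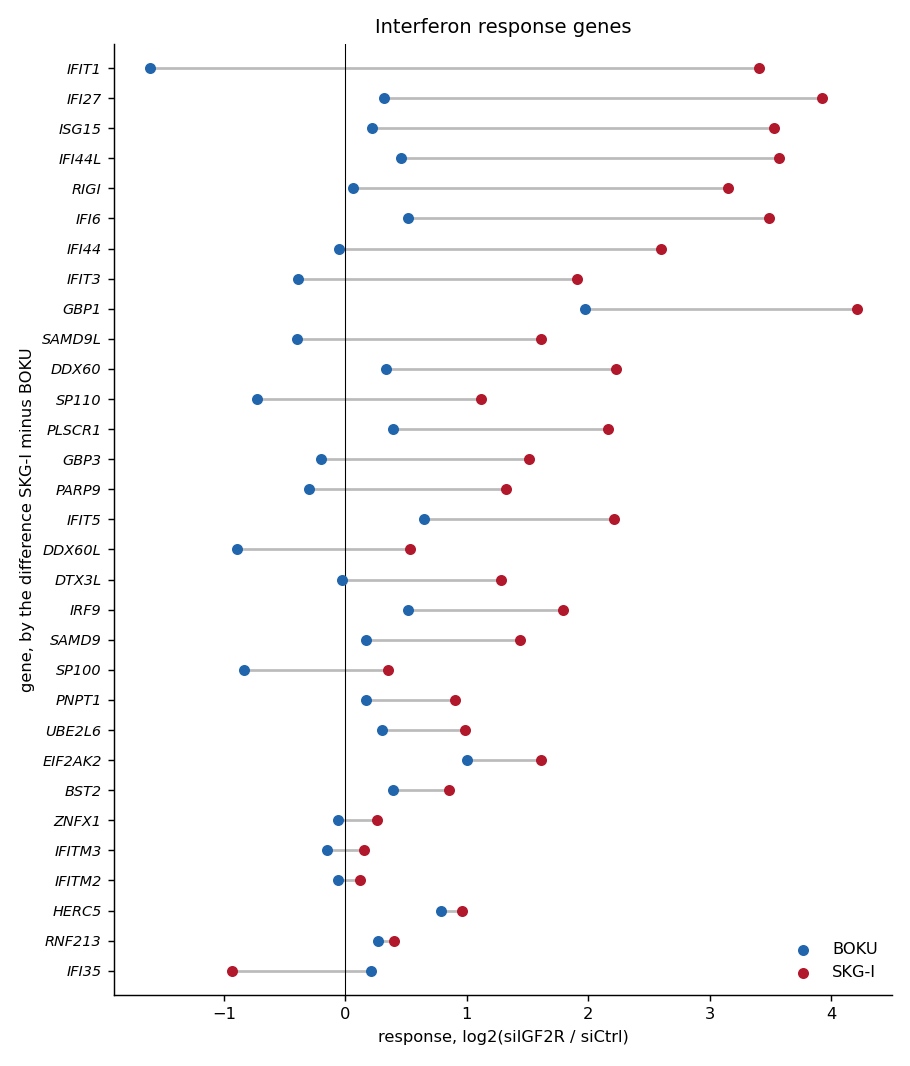
Response, log2(siIGF2R / siCtrl), of the 31 measured interferon-response genes in BOKU (blue) and SKG-I (red), ordered by the difference between the lines. Red points lie to the right of blue points in 30 of 31 genes, from a difference of 5.02 for IFIT1 down to 0.13 for RNF213, and IFI35 at -1.14 is the exception.

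The promoters of these genes were read for the interferon-stimulated response element, searched on both strands as the core of GAAA, any 2 bases and GAAA, within the 250 bases before the start of transcription, in RefSeq sequence of build GRCh38.p14. All 21 genes higher in SKG-I had a promoter entry, and 13 of them held a match (61.9%), against 839 of 27305 promoters (3.07%) and 147 of 5968 measured genes with an entry (2.46%). The following 150 bases before the start are shown for the 3 genes with the largest differences that hold the core there, since these carry the shared feature. Capitals mark the matches, and sequences read 5′ to 3′ on the strand of the gene.
IFIT1 (chr10:89392473-89392622, plus strand): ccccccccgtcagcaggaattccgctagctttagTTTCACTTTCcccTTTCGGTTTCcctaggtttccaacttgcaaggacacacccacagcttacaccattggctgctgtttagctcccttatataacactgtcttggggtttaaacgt
IFI27 (chr14:94110586-94110735, plus strand): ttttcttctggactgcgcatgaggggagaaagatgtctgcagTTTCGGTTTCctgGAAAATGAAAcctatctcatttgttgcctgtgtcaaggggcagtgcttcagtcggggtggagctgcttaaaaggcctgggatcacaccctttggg
ISG15 (chr1:1013347-1013496, plus strand): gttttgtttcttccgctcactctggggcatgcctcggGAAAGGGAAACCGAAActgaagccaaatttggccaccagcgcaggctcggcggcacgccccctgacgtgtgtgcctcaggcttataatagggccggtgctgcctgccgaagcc
Each of the 3 windows held 2 matches, which overlap in ISG15. A match describes the sequence only.

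Of 11 measured genes of nucleic acid sensing and interferon signaling, 1 was higher in SKG-I, the DNA-sensing adaptor STING1, with responses of 0.37 and 1.68, and the median difference was 0.20. Of 16 genes of MHC class I antigen presentation, HLA-E (-0.32 and 1.30) and PSMB8, an immunoproteasome subunit (0.95 and 2.11), were higher in SKG-I by 1 or more and none was lower. Of all genes 3.27% were higher in SKG-I by 1 or more and 3.83% lower. The median response of the MHC class I list was 0.22 in BOKU and 1.05 in SKG-I. In SKG-I 8 of its 16 genes rose by 1 or more (against 6.38% of all genes), and in BOKU 3 did (against 6.12%). IL7R, a cytokine receptor, was the 1 of 5 measured inflammatory and NF-kB genes past the threshold (0.15 and 1.69).

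Targets of growth factor signaling were a further group with higher values in SKG-I. Of 11 measured ERK feedback genes 6 were higher by 1 or more (54.5%, against 3.27% of all genes) and none was lower (against 3.83%). All 11 had a difference above 0, and the median response was -0.09 in BOKU and 1.18 in SKG-I. Of the 8 that reached 500 in all 4 RNA samples 3 were higher (37.5%, against 2.41% of all genes that did). The median difference was 1.43, and it was 0.86 among the genes left when a signal of 1000 was required. DUSP6, a phosphatase that inactivates ERK, gave 1815 and 2033 with siCtrl and 1434 and 1441 with siIGF2R in BOKU, and 120.3 and 70 with siCtrl and 659 and 566 with siIGF2R in SKG-I. The SKG-I arrays stayed below the BOKU arrays after the rise. The difference was 3.15 (2.57 to 3.74), and a second probe set gave 2.57.

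ETV5, an ETS transcription factor downstream of ERK, had responses of -0.09 and 2.03, and EPHA2, a receptor tyrosine kinase, had -0.32 and 1.40. DUSP5, a nuclear ERK phosphatase, rose in both lines, by 2.37 and 4.17. CCND1, the gene of cyclin D1, gave 9473 and 9288 with siCtrl and 2092 and 1876 with siIGF2R in BOKU, and 924 and 882 with siCtrl and 540.0 and 489.7 with siIGF2R in SKG-I. It fell in BOKU and had a response under 1 in SKG-I, and its difference of 1.43 (1.23 to 1.63) is positive because the response was less negative in SKG-I. PHLDA1 had responses of -0.76 and 0.86, but its probe sets differed in BOKU, where another gave 1.36, while all 3 put SKG-I higher, by 1.42 to 2.11.

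EGFR, the receptor for epidermal growth factor, gave 4109.6 and 4073 with siCtrl and 2003 and 1902 with siIGF2R in BOKU, and 2902 and 2857 with siCtrl and 4515 and 4222 with siIGF2R in SKG-I. BOKU was the higher line with siCtrl and SKG-I with siIGF2R, the difference was 1.67 (1.56 to 1.77), and further probe sets gave 1.72 and 1.40. In the last of these SKG-I had a response of -0.11 in place of 0.60. HBEGF, 1 of its ligands, had responses of -0.28 and 1.16. Of the 5 measured genes of this family and its ligands these were the 2 past the threshold (40.0%, against 3.27% of all genes).

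Of 18 immediate early and cyclic AMP response genes 5 were higher in SKG-I by 1 or more (27.8%, against 3.27% of all genes). None was lower (against 3.83%). CCN2, a matricellular growth factor, gave 17165 and 16299.9 with siCtrl and 14004 and 16334 with siIGF2R in BOKU, and 1393 and 1109 with siCtrl and 12591 and 11965 with siIGF2R in SKG-I. The BOKU arrays overlapped between the siRNAs, and SKG-I rose from far below them to just below them, for a difference of 3.45 (3.10 to 3.80). MYC had responses of -0.22 and 1.56, JUN 0.27 and 2.0, and KLF4, a zinc finger factor of epithelial differentiation, -0.91 and 0.41. MAFF, a small Maf factor, rose in both lines, by 1.49 and 2.79. A cyclic AMP response element, TGACGTCA, was found in 1 of the 4 promoters with an entry, that of MAFF. It was in 1.77% of all promoters and 3.35% of measured genes. The AP-1 element TGANTCA was in none of the 4, in 6.60% of all promoters and in 3.62% of measured genes.

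Adhesion and matrix genes were mixed. Of 26 measured genes of the extracellular matrix and its proteases 5 were higher in SKG-I (19.2%, against 3.27% of all genes). A share of 3.85%, or 1 gene, was lower, near the 3.83% of all genes. SERPINE2, a secreted protease inhibitor, gave 10138 and 10170.4 with siCtrl and 2747 and 2892 with siIGF2R in BOKU, and 13362 and 13190.2 with siCtrl and 14958 and 13992 with siIGF2R in SKG-I. It fell in BOKU, the response was 0.12 in SKG-I, and the difference was 1.97 (1.88 to 2.07). COL4A6, a basement membrane collagen chain, had responses of -1.49 and 0.20, FN1, fibronectin, -0.18 and 1.10, and MFAP5, a microfibril protein, 1.22 and 2.54. PLAUR, the urokinase receptor, had 0.92 and 2.84, although 1 of its 3 probe sets gave a difference of only 0.08. COL12A1, a fibril-associated collagen, was the 1 lower gene (0.86 and -0.22).

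Of 8 measured integrins ITGA2 and ITGA3 were higher in SKG-I by 1 or more (25.0%, against 3.27% of all genes). ITGA3 had responses of -0.38 and 0.62 and a difference that ran from 0.62 to 1.38. Among 10 genes of adhesion and the epithelial-mesenchymal switch, 30.0% were higher in SKG-I and 20.0% lower (against 3.83% of all genes). CDH2, which encodes N-cadherin, had 0.14 and 1.35. CLDN1 and FN1 were higher too, and CD24, described below, was lower. VIM, vimentin, was also lower. Its signals were 28540.3 and 36184 with siCtrl and 16504 and 21590.1 with siIGF2R in BOKU, and 929 and 875 with siCtrl and 123 and 107 with siIGF2R in SKG-I. It was far higher in BOKU throughout, and it fell in SKG-I, with responses of -0.77 and -2.97.

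Genes changed in BOKU only were mostly rises. SYNGR3, a synaptic vesicle protein, had the largest such response. Its signals were 175 and 177 with siCtrl and 4212 and 5454 with siIGF2R in BOKU, and 2056 and 2231 with siCtrl and 2769.5 and 3147 with siIGF2R in SKG-I. BOKU moved from far below SKG-I to above it, with responses of 4.77 and 0.46 and a difference of -4.31 (-4.65 to -3.96). CD24, a small surface glycoprotein, gave 1184 and 1119 with siCtrl and 7158 and 7075 with siIGF2R in BOKU, and 5085 and 5328 with siCtrl and 5356 and 5563 with siIGF2R in SKG-I. The rise in BOKU brought it past the SKG-I arrays, whose response was 0.07, and 5 further CD24 probe sets gave differences of -3.03 to -2.15. DSP, the desmosomal linker desmoplakin, had responses of 2.57 and -0.05 and was the 1 of 7 measured desmosome genes past the threshold. This made 14.3% of the list lower in SKG-I, against 3.83% of all genes. The median difference of the list was -0.38, and 6 of the 7 differences were below 0.

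ASNS, asparagine synthetase, gave 417 and 362 with siCtrl and 2402 and 2458 with siIGF2R in BOKU, and 2638 and 2760.3 with siCtrl and 2579 and 2683 with siIGF2R in SKG-I. With siIGF2R the BOKU arrays came to just below the SKG-I arrays, and the difference was -2.68 (-2.86 to -2.50). PHGDH, the first enzyme of serine synthesis, had responses of 2.22 and 0.04, and TRIB3, a pseudokinase induced by ATF4, 2.52 and 0.52. Of 35 measured genes of ER stress and ATF4 targets 4 were lower in SKG-I (11.4%, against 3.83% of all genes). VLDLR was the 1 higher gene (0.35 and 1.41), a share of 2.86% against 3.27% of all genes. The median difference was -0.24. PSAT1, which acts in serine synthesis after PHGDH, had -0.07 and -1.26, so that it fell in SKG-I and did not rise in BOKU.

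Mitotic genes were higher in the response of BOKU. Of 33 measured genes of mitosis and G2/M 25 were lower in SKG-I by 1 or more (75.8%, against 3.83% of all genes) and none was higher. This list, too, was known from earlier results. The median response was 1.10 in BOKU and -0.17 in SKG-I, with a median difference of -1.22. In BOKU 17 of 33 rose by 1 or more (against 6.12% of all genes) and none fell that far. Of the 15 genes that reached 500 in all 4 RNA samples 10 were lower in SKG-I (66.7%, against 2.34% of all genes that did). In SKG-I none rose and 2 fell, and 32 of the 33 differences were below 0. By class, 15 were changed in BOKU only and 3 were opposite.

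HMMR, a hyaluronan receptor that also acts at the spindle, gave 169 and 174 with siCtrl and 638 and 709 with siIGF2R in BOKU, and 1541 and 1419.9 with siCtrl and 828 and 916 with siIGF2R in SKG-I. The lines lay closer to each other with siIGF2R than with siCtrl, and the responses were 1.97 and -0.76, with a difference of -2.74 (-2.97 to -2.51). BIRC5, the mitotic and anti-apoptotic protein survivin, gave 307 and 297 with siCtrl and 1116 and 1058 with siIGF2R in BOKU, and 1825 and 1864 with siCtrl and 1536 and 1739 with siIGF2R in SKG-I. Its signal in BOKU stayed below SKG-I after the rise, and the difference was -2.02 (-2.19 to -1.85). UBE2C, the ubiquitin-conjugating enzyme of the anaphase-promoting complex, gave 449 and 419 with siCtrl and 1690.0 and 1669 with siIGF2R in BOKU, and 3302 and 3477 with siCtrl and 3180.2 and 3437 with siIGF2R in SKG-I. SKG-I arrays overlapped between the siRNAs, and BOKU rose but stayed below them, for a difference of -1.99 (-2.14 to -1.84).

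CCNB2, cyclin B2, had responses of 1.60 and -0.27, DLGAP5, a spindle protein, 1.81 and -0.21, and CDCA3, which promotes mitotic entry, 0.95 and -1.19. PBK, a mitotic kinase outside the list, had 1.76 and -0.37. The other members past the threshold had differences of -1.79 to -1.02, and ECT2, named after its value was seen, was the 1 gene above 0, at 0.15.

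**Figure D4:**
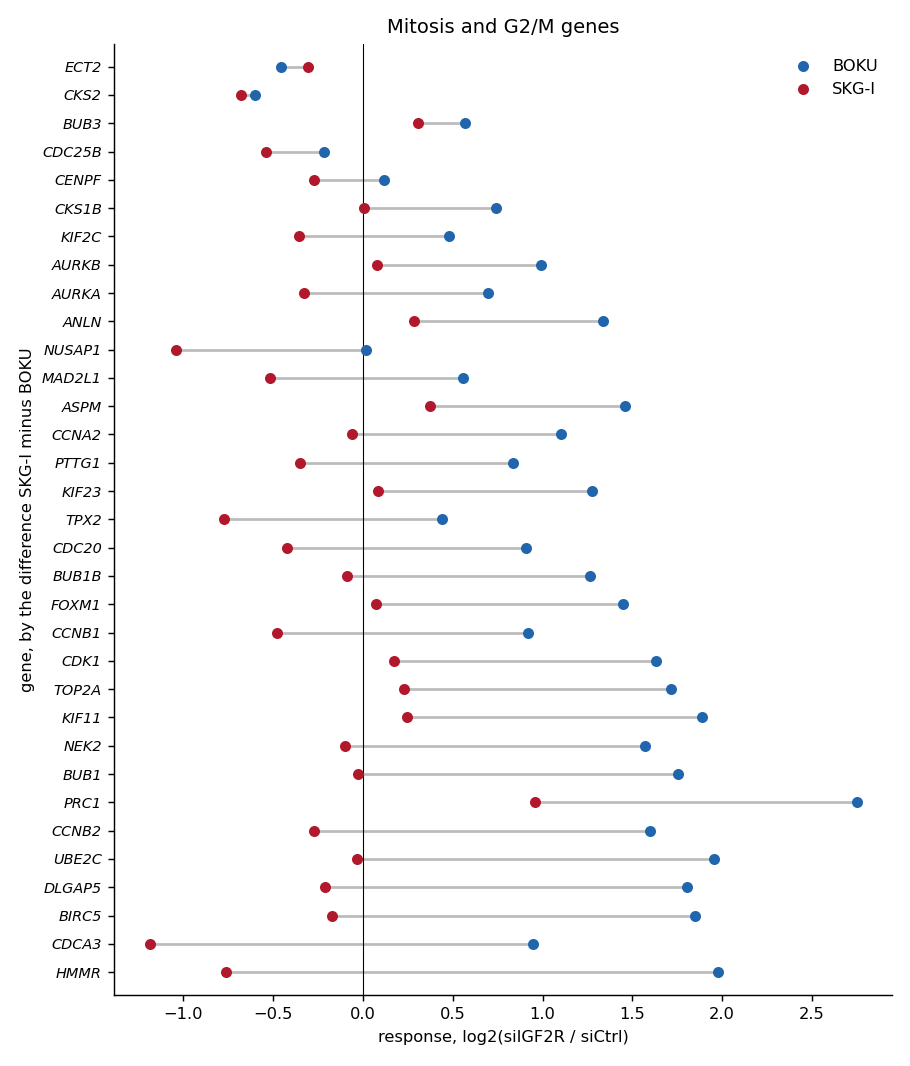
Response, log2(siIGF2R / siCtrl), of the 33 measured mitosis and G2/M genes in BOKU (blue) and SKG-I (red), ordered by the difference between the lines. Blue points lie to the right of red points in 32 of 33 genes, with the widest gap at HMMR (-2.74), and the SKG-I points have a median of -0.17.

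Promoters of the 25 mitotic genes were read in the same way for the cell cycle homology element TTTGAA and the CCAAT box, both strands, motifs chosen with the values already known. Of the 20 genes with an entry, 12 held TTTGAA (60.0%), against 13.6% of all promoters and 8.31% of measured genes. CCAAT was in 18 of 20 (90.0%), against 33.0% and 36.4%. The 150 bases before the start are shown for the 3 genes with the largest differences that hold TTTGAA there, with that element in capitals.
HMMR (chr5:163460482-163460631, plus strand): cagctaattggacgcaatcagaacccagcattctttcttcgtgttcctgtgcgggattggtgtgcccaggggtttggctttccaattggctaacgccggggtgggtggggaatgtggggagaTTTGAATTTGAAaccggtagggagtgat
DLGAP5 (chr14:55191586-55191735, minus strand): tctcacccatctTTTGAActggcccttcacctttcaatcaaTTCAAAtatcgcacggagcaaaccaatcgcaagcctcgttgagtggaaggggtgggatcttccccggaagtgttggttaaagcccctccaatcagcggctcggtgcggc
CCNB2 (chr15:59104996-59105145, plus strand): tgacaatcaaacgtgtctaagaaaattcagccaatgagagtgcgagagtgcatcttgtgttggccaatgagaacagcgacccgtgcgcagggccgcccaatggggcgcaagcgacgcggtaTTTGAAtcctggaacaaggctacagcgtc
The element has 2 matches in HMMR, in direct repeat close to the start, 2 in DLGAP5, on opposite strands, and 1 in CCNB2. A match describes these letters only.

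Of 27 measured genes of DNA replication and S phase 1 was lower in SKG-I, RRM2, a ribonucleotide reductase subunit (1.53 and -0.59), and 1 was higher, UHRF1, which maintains DNA methylation (-2.42 and -0.92). Each made 3.70% of this list, near the shares of all genes, and the median difference of the list was -0.25. Of 17 cell cycle inhibitors, RB family members and cyclin D kinases 3 were lower in SKG-I (17.6%, against 3.83% of all genes), CDKN1C, CDKN2B, the inhibitor p15 (-0.24 and -1.46), and E2F5, an E2F repressor (2.54 and 1.29), and CCND1 was higher. E2F5 had a difference that ran from -2.31 to -0.20.

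Falls in BOKU alone were few. ETS1, an invasion-related transcription factor, gave 7518 and 6776 with siCtrl and 2762 and 2266 with siIGF2R in BOKU, and 939 and 812 with siCtrl and 908 and 929 with siIGF2R in SKG-I. It fell in BOKU while the SKG-I arrays overlapped, and the difference was 1.58 (1.25 to 1.92). GSTO1, a glutathione transferase, had responses of -1.18 and 0.27, KCNJ2, a potassium channel, -1.48 and 0.21, FAH, the last enzyme of tyrosine breakdown, -1.02 and 0.47, and GPATCH4 -1.54 and -0.11. TFPI2, a protease inhibitor, had -1.24 and 0.23, but a second probe set gave 1.08 and 2.76. The probe sets disagreed on the response of each line and gave like differences, 1.47 and 1.67.

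Falls in SKG-I alone included KRT19, the epithelial keratin of the marker list. Its signals were 17112 and 18705 with siCtrl and 14529.6 and 17644 with siIGF2R in BOKU, and 7024 and 7222 with siCtrl and 1968 and 1939 with siIGF2R in SKG-I. BOKU arrays overlapped between the siRNAs and SKG-I arrays fell, with a difference of -1.71 (-1.94 to -1.47). HEY1, a transcriptional repressor induced by Notch, had responses of 0.49 and -1.54, and a second probe set gave 0.80 and -1.55. RDH10, which makes retinal from retinol, had 0.20 and -1.87, and HSPA2, an HSP70 chaperone, -0.01 and -1.78. CDC42EP4, an effector of the GTPase CDC42, had -0.44 and -2.25, CLIP4 -0.15 and -2.18, EPB41L4A 0.13 and -2.20 and the pseudogene WFDC21P 0.40 and -2.10. Of 8 measured Notch pathway genes the other past the threshold was NOTCH2, a receptor that fell in BOKU (-1.13 and -0.11). A second NOTCH2 probe set gave a difference of 0.94. HEY1, lower in SKG-I, and NOTCH2, higher, each made 12.5% of the list, against 3.83% and 3.27% of all genes. Among rises in SKG-I alone outside the lists, DIPK1A had 0.28 and 2.98.

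For lipid and metabolic genes, shares are read against the 3.27% of all genes higher in SKG-I and the 3.83% lower. Of 23 measured genes of cholesterol and fatty acid synthesis 3 were lower in SKG-I, ACSS2, which makes acetyl-CoA (1.54 and -0.50), FASN, fatty acid synthase (0.68 and -0.65), and SREBF1, their transcription factor (-0.39 and -1.40), and STARD4, a sterol carrier, was higher (0.51 and 1.65). Of 32 genes of glycolysis and hypoxia ENO2 (1.92 and 3.08) and HK1 (0.12 and 1.27), glycolytic enzymes, were higher (6.25%). PDK3, ADM and VEGFA were lower (9.4%), with differences of -1.32, -1.14 and -1.03. ABCC3, a drug exporter, was opposite (-1.32 and 0.80), and TKT, transketolase, had -0.22 and -1.28.

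The lists closest to the known work of IGF2R are sorting, lysosomes and vesicle transport, and their counts are read against the 3.27% of all genes that were higher in SKG-I and the 3.83% that were lower. Of 26 measured genes of mannose 6-phosphate sorting 1 was past the threshold, the clathrin adaptor subunit AP1M2 (-0.09 and -1.46), and the median difference was -0.03. Of 29 cathepsins and lysosomal hydrolases it was SMPD1, acid sphingomyelinase (0.09 and -1.11), and the median was -0.07. None of 29 genes of the lysosomal membrane and V-ATPase and none of 28 autophagy genes reached 1, with medians of 0.13 and -0.12. Of 85 genes of Golgi and ER vesicle transport, RAB1B and SEC24A did. RAB1B, a small GTPase of ER-to-Golgi transport, gave 2348 and 2304 with siCtrl and 109 and 146 with siIGF2R in BOKU, and 2074 and 1933 with siCtrl and 252 and 304 with siIGF2R in SKG-I. It fell in both lines, with responses of -4.20 and -2.86 on the log2 scale. SEC24A, a COPII coat subunit, had 1.99 and 0.76, but a second probe set gave 0.79 and 0.16, a difference of -0.62.

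Of 18 genes of clathrin and AP-2, 16.7% were lower in SKG-I, against 3.83% of all genes. These were the endocytic adaptor DAB2, the transferrin receptor TFRC and the membrane-bending protein BIN1, with differences of -1.24, -1.12 and -1.02. Further DAB2 probe sets gave -0.99, -0.96 and -0.64, all under the threshold. Of 11 genes of the IGF axis IGFBP3 (0.97 and -0.51) and IGFBP6 (-0.36 and 0.77), secreted binding proteins of the IGFs, were past the threshold in opposite directions. Each made 9.09% of this list, against 3.27% of all genes higher in SKG-I and 3.83% lower. IGF1R, the signaling receptor and not a gene of the naming rule, had -0.22 and -0.61 and was not past the threshold. No gene reached a difference of 1 among 56 subunits of oxidative phosphorylation, 27 proteasome genes, 50 cytosolic ribosomal proteins, 20 p53 targets and 16 genes of the RNA interference machinery, and their medians lay between -0.17 and 0.27.

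**Figure D5:**
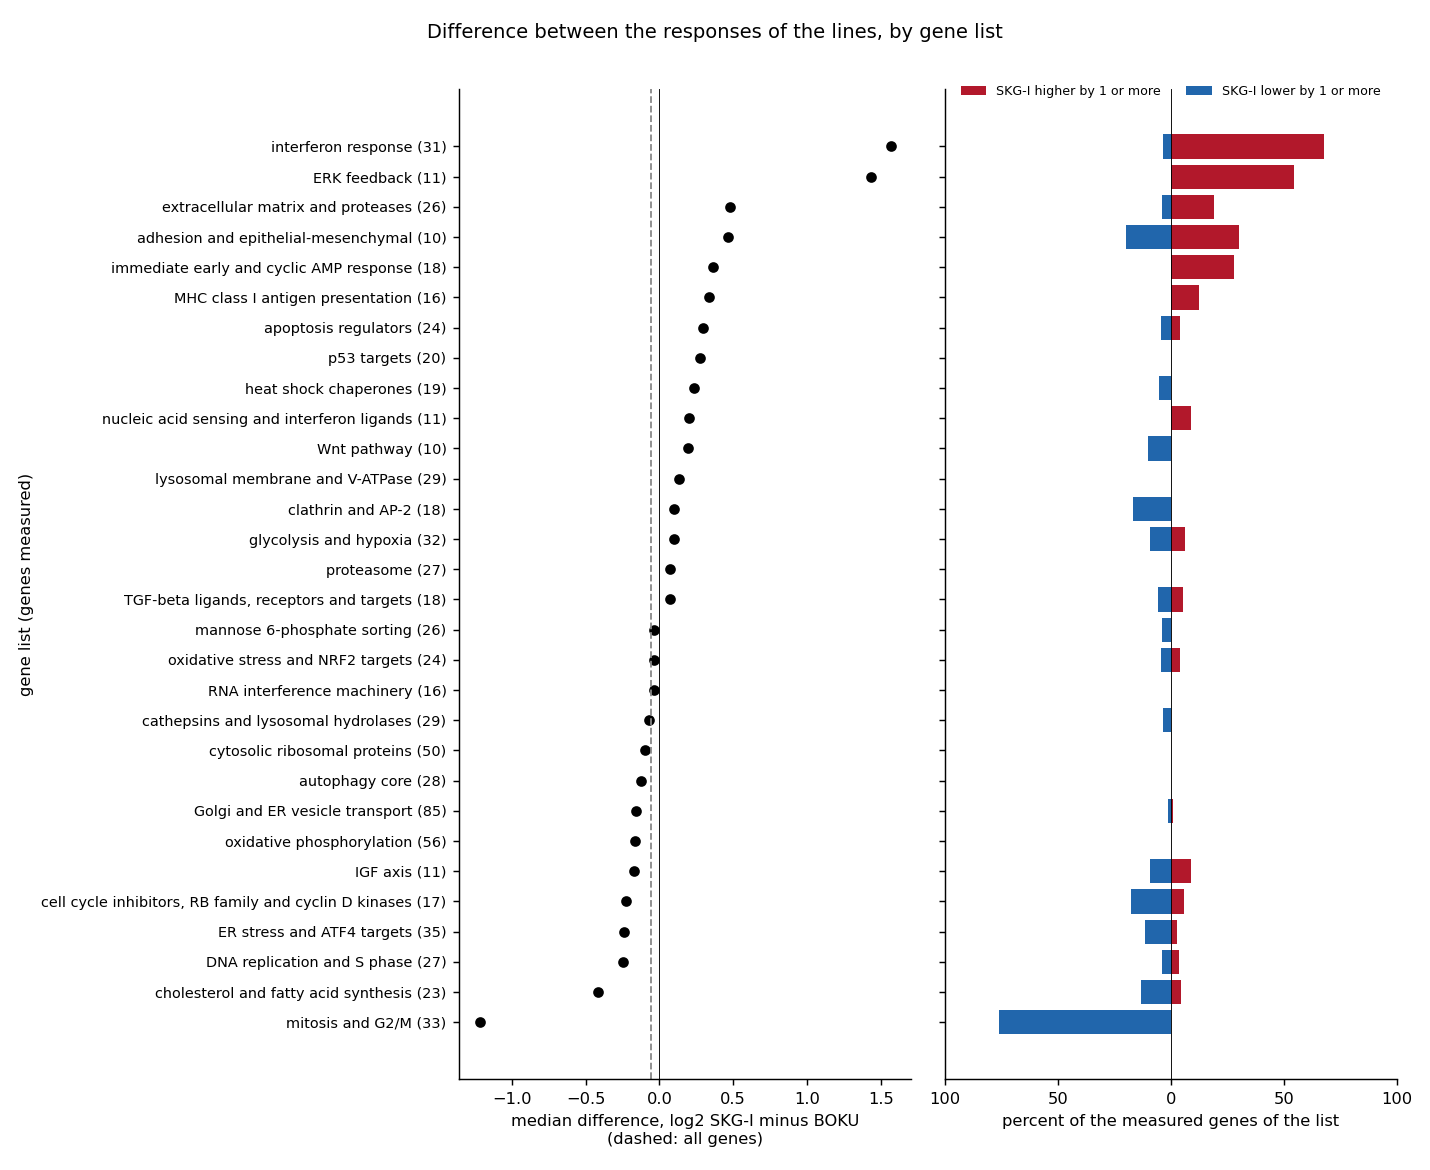
Difference between the responses by gene list, for the 30 lists with 10 or more measured genes (number of genes in parentheses). The left panel shows the median of the log2 difference, SKG-I minus BOKU, against the median of all genes (dashed, -0.06), and the right panel the percent of measured genes past 1 with SKG-I higher (red) or lower (blue). Interferon response (1.57) and ERK feedback (1.43) lie at the top and mitosis and G2/M (-1.22) at the bottom, and every other plotted list has a median between -0.42 and 0.48.

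BCL2L1, an anti-apoptotic BCL2 protein, had responses of -0.37 and 1.02, FST, the activin antagonist follistatin, -0.45 and 0.85, and ACVR1B, an activin receptor, 0.45 and -0.59. ZNRF3, a ubiquitin ligase that removes Wnt receptors, rose in both lines and more in BOKU (3.39 and 1.24). Its BOKU siCtrl signals were only 52.4 and 60.9, and with signals under 100 set to 100 the least difference in size over the array choices was 1.28. H2AC25, a histone gene, had 1.19 and -0.08. Of the 85 genes that moved the same way, named after their values were seen, TAGLN, a smooth muscle actin-binding protein, gave 2126 and 2318 with siCtrl and 8857 and 11393 with siIGF2R in BOKU, and 76.5 and 128 with siCtrl and 11438 and 10928 with siIGF2R in SKG-I. It had the highest response of all genes in SKG-I, 6.82 against 2.18 in BOKU, and the lines reached a similar level with siIGF2R. HMGA2, an architectural chromatin protein, fell in SKG-I (-0.56 and -2.62).

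Where a gene had a second probe set, that set was compared. Of 117 named genes past the threshold 38 had at least 1 further analyzed probe set, 57 in all. All 57 had the sign of the main probe set and 48 were also past 1. For BIN1, CLDN1, E2F5, FN1, IGFBP6, ITGA3, NOTCH2, PSMB8, SMPD1, SREBF1, TKT, VEGFA and VLDLR the difference went under 1 when 1 of the 8 arrays was left out.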

How the data were processed

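Total RNA of the 4 samples was labelled as cRNA and hybridized to Affymetrix U133 Plus 2.0 arrays. The deposited values are MAS5 signal intensities on a linear scale, which the authors had normalized to a common mean on each array, and their 2% trimmed mean lay between 500.06 and 500.07 on every array. The lowest value was 1. A hybridization gives no read count, and the precision is limited by the 1 RNA sample per line and siRNA.

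Of 54675 probe sets, 62 controls were left out, and 12172 probe sets that reached a signal of 500 on any array of each line were analyzed. Through the platform annotation, with 43 symbols updated by RefSeq, 10792 of these matched 1 gene, 614 several and 766 none. Signals were taken to log2 and duplicate arrays averaged, since both carried the same RNA and count as 1 sample. No further normalization was applied, and no test entered the reported calls. A call is a difference of 1 or more in size.

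Named were IGF2R, the 8 genes of each of 6 classes whose smallest difference over the 16 array choices was largest (with signals under 100 set to 100), and up to 6 genes past 1 of each of 39 gene lists. The cell type markers, the genes nearest the threshold and IGF1R were named besides. Other genes outside this rule are said to be chosen after their values were seen. The members, the lists and the naming rule were chosen with earlier results of these data known. Promoters came from RefSeq, GRCh38.p14, and were matched by symbol.

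The alternatives were other filters on low signals (250, 1000, none), a floor of 100, an added constant of 64, quantile, median and centred scaling, arithmetic means, probe sets without shared-sequence suffixes, other class limits, leaving out each array, and limma 3.58.1 on the 8 arrays with and without a replicate block. Scripts were tested on simulated data and ran in Python 3.11.15 (numpy 2.4.6, pandas 2.3.3, matplotlib 3.10.9) and R 4.3.3.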

Additional observations from a re-analysis of the deposited data

Results flagged for a closer look

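All 24 named genes of the opposite class were looked at, which have a response of 0.5 or more in each line. In each, every array of one line moved one way and every array of the other the opposite way. This was judged over all 4 pairings of a siIGF2R with a siCtrl array in each line. Because the genes had been chosen for opposite responses, the check set none aside and adds no support. With 1 RNA sample per line and siRNA the difference was not tested. With SKG-I higher, the differences on the log2 scale were 5.02 for IFIT1, 4.09 for ITGA2, 3.50 for SPHK1, 3.07 for THBD, 2.68 for PRAG1, 2.50 for NT5E, 2.12 for ABCC3, 2.11 for PNP, 2.10 for TM4SF1, 1.67 for EGFR and 1.63 for PHLDA1. With SKG-I lower, they were -3.94 for OLFML2A, -2.91 for KCTD12, -2.80 for LURAP1L, -2.74 for HMMR, -2.69 for CDKN1C, -2.58 for DLX2, -2.20 for KYNU, -2.14 for CDCA3, -2.11 for RRM2, -2.05 for NALCN, -2.04 for ACSS2, -1.48 for IGFBP3 and -1.32 for FASN.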

How the results depend on the processing

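Counts of probe sets are given in the order higher in SKG-I, lower in SKG-I, opposite, changed in SKG-I only and changed in BOKU only, and were 424, 422, 137, 250 and 140 as reported. Requiring a signal of 250 gave 669, 731, 215, 399 and 254. Requiring 1000 gave 261, 202, 63, 153 and 73. Without a filter they were 8805, 8359, 5703, 3835 and 3637 of 54613 probe sets, most of them at low signal. Probe sets without shared-sequence suffixes, 6118 in number, gave 219, 244, 74, 131 and 87. Requiring a difference past 1 in all 16 array choices gave 221 and 211, with 138 changed in SKG-I only and 76 in BOKU only. With a class limit of 0.25 there were 313 opposite, 162 changed in SKG-I only and 90 in BOKU only, and 13 were opposite when a response of 1 was required in each line. Leaving out 1 array gave 407 to 453, 394 to 462, 129 to 158, 239 to 261 and 137 to 155.

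The limma fits kept only probe sets under a false discovery rate of 0.05. With the replicate block this gave 421, 419, 137, 249 and 140, against 421, 415, 136, 248 and 139 without it. The deviations of same-numbered arrays correlated from -0.033 to 0.36 over the pairs of groups, highest between the BOKU groups, and since not every pair was above 0.1 the numbers were not taken to pair the arrays. These fits see the spread of duplicate hybridizations only.

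Scaling moved the median difference by less than 0.1, and the share of calls that were higher in SKG-I lay between 47.3% and 56.4% over all settings, against 50.1% as reported. No difference of a named gene changed sign in 2153 recomputed values. Of 117 named genes past 1, 101 stayed there in every value that could be computed, and 16 went under 1 in 52 of 2135 values. ACVR1B with the added constant (0.99 in size), COL12A1 with quantile scaling (0.99) and PLAUR on its other probe set (0.08) went under 1 in that setting only. BIN1, CLDN1, E2F5, IGFBP6, ITGA3, NOTCH2, SREBF1, VEGFA and VLDLR did so both with a left-out array and with the added constant, another scaling or arithmetic means. FN1, PSMB8, SMPD1 and TKT did so with a left-out array only. The median difference ran from 1.27 to 1.64 for the interferon list, from -1.64 to -1.16 for the mitosis list and from 0.82 to 1.53 for the ERK feedback list.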

Other observations

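Probe sets that reached a signal of 500 in 1 line only were outside the comparison. There were 2378 in SKG-I and 1967 in BOKU. Where a gene was low with 1 siRNA it entered this set only through the arrays where it was high, so that the filter favors its rise or fall. The genes named here reached 500 with both siRNAs of the line, were chosen after their values were seen and are given as a description.

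IFITM1, an interferon-induced membrane protein, gave 5926 and 5707 with siCtrl and 12749.7 and 12228 with siIGF2R in SKG-I, a response of 1.10. TRIM22, another interferon-induced gene, gave 5244 and 5012 with siCtrl and 2563 and 2109 with siIGF2R in BOKU, a response of -1.14. NR4A2, an immediate early transcription factor, gave 1855 and 1924 with siCtrl and 3736 and 4068 with siIGF2R in SKG-I, a response of 1.04. DSC2, a desmosomal cadherin, had the strongest change of these genes, from 6807 and 6605 to 596 and 598 in SKG-I, a response of -3.49.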
